A study of Homo sapiens with 12 samples.

Results

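The 8 genes described here come from families known for inhibitors of cell differentiation. They are ID1, ID2, ID3 and ID4 of the ID family, and HES1, HES5, HES6 and HEY1 of the HES and HEY families. HES6 is here by family only, since it goes with neuronal differentiation. They were taken by gene symbol from the 27505 features of the count table, of which 19974 are Ensembl genes. The group was chosen on ID2, which was among the strongest rises after THZ1, so the THZ1 values of the members are given as a description, without a test. The other 7 were added by family.

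ID proteins carry a helix-loop-helix domain but no basic region, so they pair with E proteins such as TCF3 and keep them, and the proneural factors that need them, from binding DNA. BMP signals, relayed by SMAD proteins, are the textbook inducers of ID genes. HES and HEY proteins bind DNA and repress proneural genes, HES proteins together with Groucho corepressors. The genes HES1, HES5 and HEY1 are classical targets of the Notch receptor. HES6 is the exception in its family, because it opposes HES1 and goes with neuronal differentiation. In the developing retina HES1, HES5 and ID genes mark progenitors and Müller glia, whereas HES6 marks cells that are leaving the progenitor state.

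RNA was sequenced from 2 established human retinoblastoma lines, WERI-Rb-1 (WERI) and Y79, both labelled as wild type in genotype. Cells were kept for 12 h in 0.1% dimethyl sulfoxide (DMSO), the solvent, or in 50 nM THZ1, a compound that inhibits CDK7 covalently and also reaches CDK12 and CDK13, kinases of transcription. The 4 groups held 3 cultures each. The design thus asked how gene transcription in these cells responded to THZ1, at a single dose and a single time.

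All members are short genes. Positions are those of GENCODE release 29 on GRCh38, and the spans run from 1233 bases for ID1 (chromosome 20, 31605283 to 31606515) to 5609 bases for ID2 (chromosome 2, 8678845 to 8684453). ID3 lies on chromosome 1 (23557918 to 23559794), ID4 on chromosome 6 (19837386 to 19840684) and HES1 on chromosome 3 (194136145 to 194138732). HES5 lies on chromosome 1 (2528745 to 2530245), HES6 on chromosome 2 (238238267 to 238240662) and HEY1 on chromosome 8 (79764010 to 79767863). ID2 shares 38 exon bases with the antisense gene ID2-AS1. The library kit is not known to keep strand, so a few reads of that gene cannot be told from those of ID2.

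The 12 libraries held from 29677575 to 37433574 counts. In Y79, THZ1 replicate 2 stood apart: counts of this library differed from those of its replicates by a chi-square per degree of freedom of 72.9 and 74.4, against 13.4 for the other pair. All 12 retinoblastoma and photoreceptor markers had counts in each group, summing to between 2600 and 3670 CPM, counts scaled to a common library total. Genes of the other marker lists had counts too, so the presence of counts does not verify the label of a line. Summed glial and progenitor markers lay at 249 to 260 CPM in WERI controls and 352 to 369 after THZ1, and at 710 to 719 and 617 to 750 CPM in Y79. In WERI 9 of the 12 had counts in controls and 10 after THZ1, and in Y79 10 and 8. Among them SOX2, SOX9 and PAX6 were at 0 in WERI controls, RLBP1 and PAX6 in treated WERI cells, RLBP1 and SOX2 in Y79 controls, and RLBP1, AQP4, SOX9 and SOX2 in treated Y79 cells. Summed stromal, vascular and blood markers were at 27.3 to 31.4 CPM in WERI controls and 57.5 to 58.4 after THZ1, and at 3.14 to 4.94 and 7.41 to 8.15 CPM in Y79. In WERI 11 and then 10 of these 12 had counts, and in Y79 8 and then 9. DCN was at 0 in WERI controls, CDH5 and PTPRC in treated WERI cells, and CDH5 and COL3A1 in both Y79 groups, joined by DCN and PECAM1 in controls and HBB after THZ1. The part of these markers in the results was not tested.

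RefSeq promoter windows (GRCh38.p14) were found for 7 members, all but HEY1. The lines below show positions -40 to -11 before the RefSeq start site on the strand of the gene, 30 bases each, so that the members can be compared at the usual place of a TATA box. Capitals mark TATAAA on either strand. Not all stretches lie outside transcribed sequence, since of the 250 bases before the RefSeq start GENCODE places 250 in exons for ID3, 229 for ID2 and 86 for HES6, and at most 6 for the others.
ID1: tggcgtgTTTATAAAagacaagctgtggct
ID2: gcgagtgcggataaaagccgccccgccggg
ID3: caggcaggctctataagtgaccgccgcggc
ID4: gcgcacggctcTATAAAtacagctgcgcgg
HES1: agtcccagatatatatagaggccgccaggg
HES5: ccgcccgcgcctatatagggcgtcggcgcg
HES6: aataagcggcTATAAAaggggcgggaccgc
ID1 (chr20:31605249-31605278, plus strand), ID4 (chr6:19837330-19837359, plus strand) and HES6 (chr2:238240049-238240078, minus strand) held TATAAA. ID2 (chr2:8682016-8682045, plus strand), ID3 (chr1:23559512-23559541, minus strand), HES1 (chr3:194136108-194136137, plus strand) and HES5 (chr1:2530274-2530303, minus strand) did not hold these letters. In the whole 250 bases before the start site TATAAA was present on either strand in 3 of the 7 members and in 10.7% of 35116 RefSeq promoters.

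The upstream windows of HES1 and ID1 are shown as examples of a Notch target and a BMP target. Capitals mark the letters CCAAT, those of TATAAA, and also TGGGAA (the core site of the Notch partner RBPJ), on either strand. The HES1 window is chr3:194135898-194136144 and the ID1 window is chr20:31605039-31605282, both on the plus strand and ending where the annotated exon begins.
HES1: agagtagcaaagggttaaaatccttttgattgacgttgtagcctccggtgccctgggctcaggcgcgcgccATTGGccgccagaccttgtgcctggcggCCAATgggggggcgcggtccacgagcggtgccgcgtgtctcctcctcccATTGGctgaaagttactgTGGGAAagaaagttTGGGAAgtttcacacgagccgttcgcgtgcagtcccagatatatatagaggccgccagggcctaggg
ID1: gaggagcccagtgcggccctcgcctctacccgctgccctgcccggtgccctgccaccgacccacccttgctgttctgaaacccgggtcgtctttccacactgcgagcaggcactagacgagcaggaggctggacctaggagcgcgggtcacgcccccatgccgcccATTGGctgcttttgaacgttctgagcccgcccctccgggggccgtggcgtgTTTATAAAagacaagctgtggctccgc
TGGGAA occurred 2 times in HES1, starting at -84 and -70, and also 2 times in HES5, against 20.8% of all promoters with at least 1. CCAAT was found in 6 of the 7 members, all but ID3, against 32.0% of promoters. CACNAG, the N-box that HES proteins bind, occurred 3 times in HES1 and 1 time in ID1, against 32.0%. The E-box letters CANNTG, which E proteins bind, were in 4 of the 7 windows (ID2, ID4, HES5 and HES6) against 61.8%. GGGCGG, the letters of an SP1 site, were in 5 of 7 against 42.6%, GGCGCC in HES5 only (16.4%), and TGACG in ID3 and HES1 (21.2%). These matches are letters in a window and were not measured as bound sites.

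**Figure D1:**
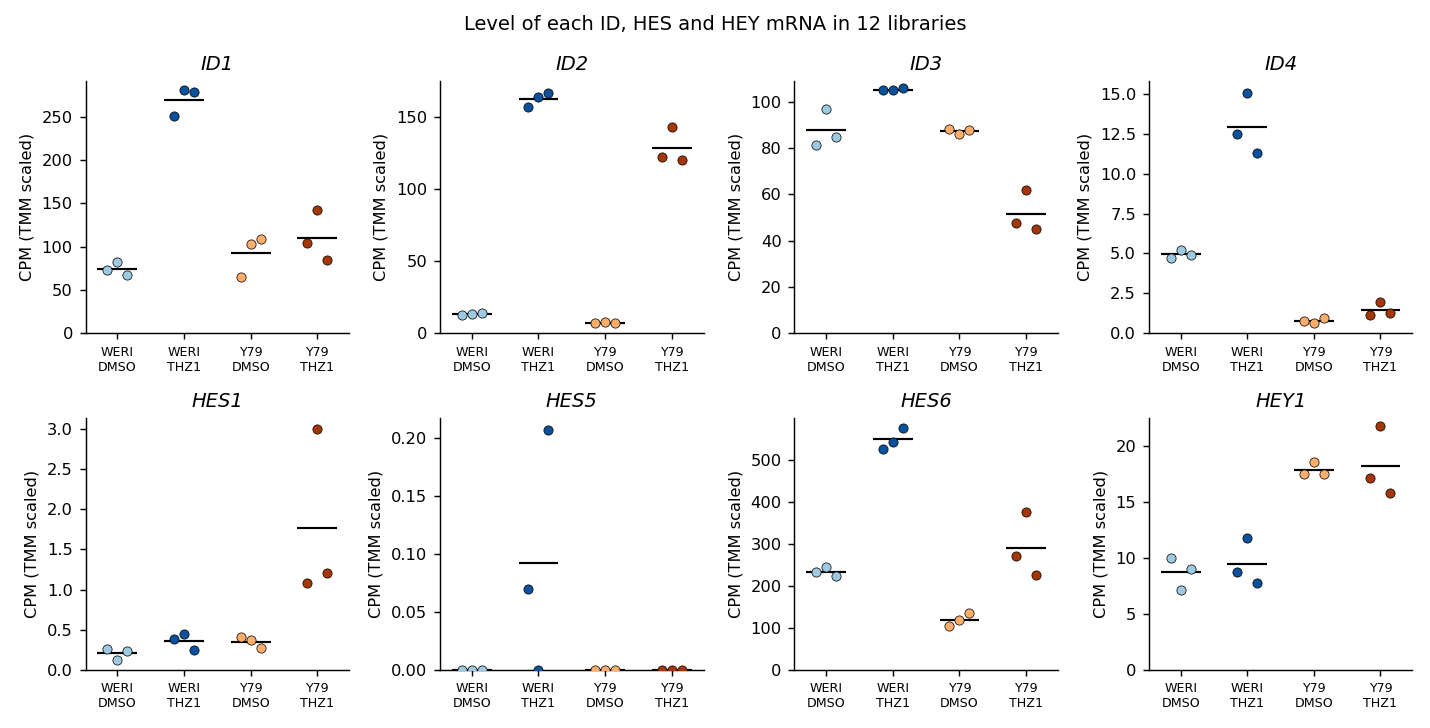
Level of each member in CPM with TMM scaling (vertical axis, starting at 0) in the 12 libraries, by group, with 3 points and a line at the mean per group. ID2 is the member whose treated libraries stand far above the controls in both lines, at 157 to 167 CPM in WERI and 120 to 143 CPM in Y79.

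ID2 had the largest THZ1 change of the 7 members with enough counts, in both lines. Levels are CPM after TMM scaling, which takes the bulk of genes as stable between libraries, errors of levels are SD (n = 3), and errors of log2 fold changes are standard errors (SE) from the edgeR model. In WERI controls ID2 stood at 12.7, 13.3 and 14 CPM, and in treated WERI cells at 157, 164 and 167 CPM. In Y79 controls it stood at 6.73, 7.95 and 6.88 CPM, and after THZ1 at 122, 143 and 120 CPM. Treated and control libraries were thus far apart in each line, and the treated libraries of WERI were above those of Y79 too. The log2 fold change was 3.61 ± 0.0916 in WERI, a 12.2-fold difference, and 4.15 ± 0.0957 in Y79, a 17.8-fold difference. Among the 10121 Ensembl genes whose log2 CPM averaged 3 or more, these were the 12th and the 23rd largest values, and among all 14865 tested genes they ranked 90 and 149. In bulk RNA, more RNA per cell and more cells with the RNA cannot be told apart.

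ID1, the founding member of the family, was higher after THZ1 in WERI, and its groups overlapped in Y79. WERI control libraries held 73.5, 81.9 and 67.1 CPM and treated ones 251, 281 and 279 CPM, a log2 fold change of 1.87 ± 0.204. Y79 controls held 65.1, 103 and 109 CPM and treated Y79 cells 104, 142 and 84.9 CPM (log2 0.26 ± 0.199). The lowest Y79 control was replicate 1 and the highest treated library was replicate 2, so that the spread within each Y79 group was wider than the step between them. Without the treated replicate 2, which stands apart, the Y79 value was 0.01.

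ID3 differed in direction between the lines under TMM scaling. In WERI it stood at 81.3, 97.0 and 84.7 CPM in controls and at 105, 105 and 106 CPM after THZ1, a log2 fold change of 0.26 ± 0.102. In Y79 it stood at 88.2, 86.3 and 87.7 CPM in controls and at 47.5, 62.0 and 44.9 CPM after THZ1 (log2 -0.77 ± 0.104, and -0.95 without treated replicate 2). The WERI difference turned to -0.18 with library size only and to -1.63 when libraries were scaled on mitochondrially encoded mRNAs, while the Y79 value was negative under all 3 scalings. ID3 was the sole member with lower treated libraries that did not overlap the controls, and only in Y79.

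ID4, a neural member of the family, was low and was mostly a WERI transcript. WERI controls held 4.72, 5.23 and 4.91 CPM and treated WERI cells 12.5, 15.1 and 11.3 CPM (log2 1.39 ± 0.205). Y79 controls had 33, 24 and 39 counts (0.784, 0.602 and 0.939 CPM), compared with 32, 40 and 30 after THZ1 (1.15, 1.94 and 1.25 CPM; log2 0.88 ± 0.246, and 0.60 without treated replicate 2). The Y79 counts themselves did not separate treated from control libraries, and the CPM did so through the scaling factors.

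HES6 was the most abundant HES transcript in each group and was higher after THZ1 in both lines. It stood at 232, 245 and 222 CPM in WERI controls and 526, 543 and 576 CPM in treated WERI cells, a log2 fold change of 1.23 ± 0.147. In Y79 it stood at 105, 118 and 134 CPM in controls and 271, 375 and 226 CPM after THZ1 (log2 1.29 ± 0.148, and 1.03 without treated replicate 2). Treated and control libraries did not overlap in either line, and treated Y79 cells overlapped WERI controls.

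HES1, the main Notch effector, was near the lower end of what was counted. Counts were 11, 5 and 11 in WERI controls against 11, 13 and 7 after THZ1, so the groups overlapped (log2 0.77 ± 0.561). Counts in Y79 were 17, 15 and 11 without the drug against 30, 62 and 29 with it. In CPM the Y79 means were 0.348 ± 0.0737 and 1.76 ± 1.08, a log2 fold change of 2.32 ± 0.523 that was 1.67 ± 0.589 without treated replicate 2. Replicate 2, with 62 counts, thus carried much of the Y79 difference, although the other treated libraries were also above all Y79 controls.

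HES5, another Notch target, had no counts in 10 of the 12 libraries and did not pass the filter on low counts. The only counts were 2 and 6, in WERI THZ1 replicates 1 and 3. A library with 0 counts leaves room for up to 3 counts, which was between 0.0801 and 0.101 CPM by library size, for counting error only. HEY1, a Notch and BMP target, overlapped between treated and control libraries in both lines. It stood at 9.95, 7.15 and 9 CPM in WERI controls and 8.75, 11.8 and 7.73 CPM after THZ1 (log2 0.11 ± 0.173). In Y79 it stood at 17.5, 18.6 and 17.5 CPM and at 17.1, 21.8 and 15.8 CPM (log2 0.03 ± 0.168, and -0.15 without treated replicate 2).

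In WERI the CPM of treated and control libraries did not overlap for 5 higher members and 0 lower ones of 7, against 33.1% of all 14865 tested genes higher and 42.8% lower (75.9% in all). In Y79 this held for 4 higher members and 1 lower one, against 29.4% higher and 39.5% lower (68.9% in all). Because ID2 was chosen on this contrast, nothing is read from these counts of members, and the members were not tested in it. Among all tested genes edgeR called 27.7% higher and 37.2% lower in WERI at an adjusted p under 0.05 (64.8% in all). In Y79 it called 29.9% higher and 38.5% lower (68.3% in all). The median log2 fold change was 1.23 over the 7 members in WERI and 0.88 in Y79, and -0.11 and -0.089 over all tested genes.

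**Figure D2:**
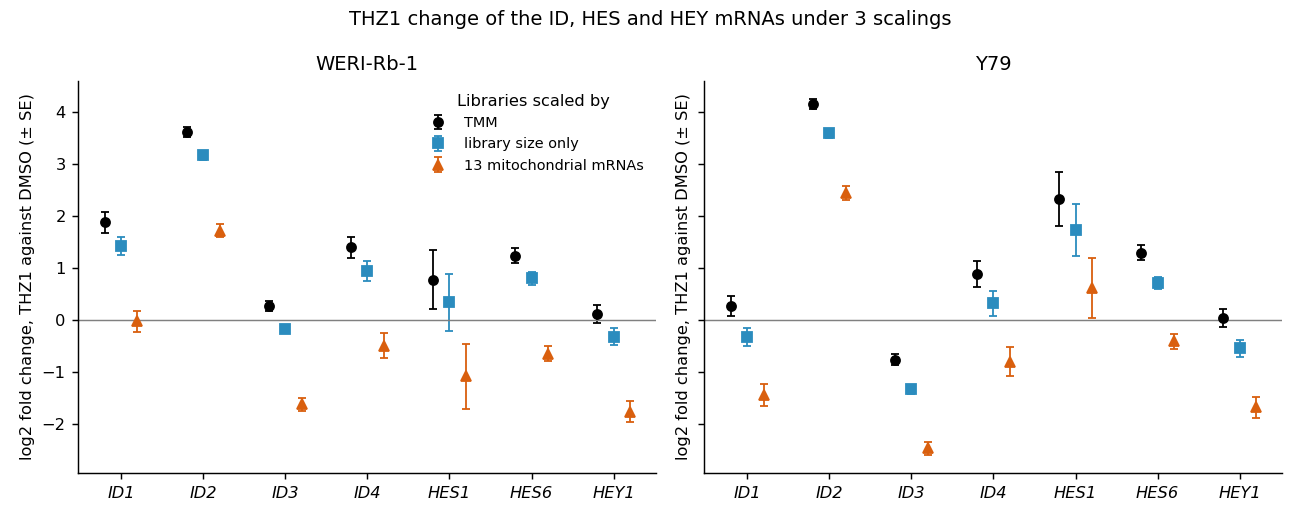
Log2 fold change after THZ1 (vertical axis, ± SE) of the 7 members tested, in WERI-Rb-1 (left) and Y79 (right), with libraries scaled by TMM factors, by library size only, or on 13 mitochondrially encoded mRNAs. Every member shifts down from TMM to mitochondrial scaling, for example ID2 from 3.61 to 1.71 in WERI and HES6 from 1.23 to -0.66.

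How far the other members stood above their controls depended on the scaling. The 13 mRNAs encoded in mitochondria, which have their own polymerase, took 3.74% to 3.94% of counts in WERI controls and 9.79% to 11.2% after THZ1, and 3.94% to 4.46% and 8.44% to 9.73% in Y79. With library size only, 5 of 7 members were positive in WERI and 4 of 7 in Y79. Scaled on the mitochondrial mRNAs, ID2 alone was positive in WERI (1.71), and ID2 (2.44) and HES1 (0.61) in Y79. HES6 then stood at -0.66 and -0.42, ID4 at -0.50 and -0.81, and ID1 at -0.03 and -1.45. These scalings moved all genes together, and ID2 was chosen for a large rise, so nothing is read from its keeping its sign.

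Ratios within a library do not depend on any scaling between libraries. The ratio of ID2 to ID3 counts was 0.153 ± 0.0143 in WERI controls and 1.54 ± 0.0473 after THZ1, 10.1-fold apart. In Y79 it was 0.0823 ± 0.00856 and 2.51 ± 0.186, or 30.5-fold apart. The ratio of ID2 to ID1 counts was 0.181 ± 0.0240 in WERI controls and 0.602 ± 0.0202 after THZ1, while Y79 had 0.0811 ± 0.0202 and 1.19 ± 0.206. The treated and control ranges of both ratios were apart in each line. Both ratios hold ID2, which was chosen for its rise after THZ1, so nothing is read from this gap.

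**Figure D3:**
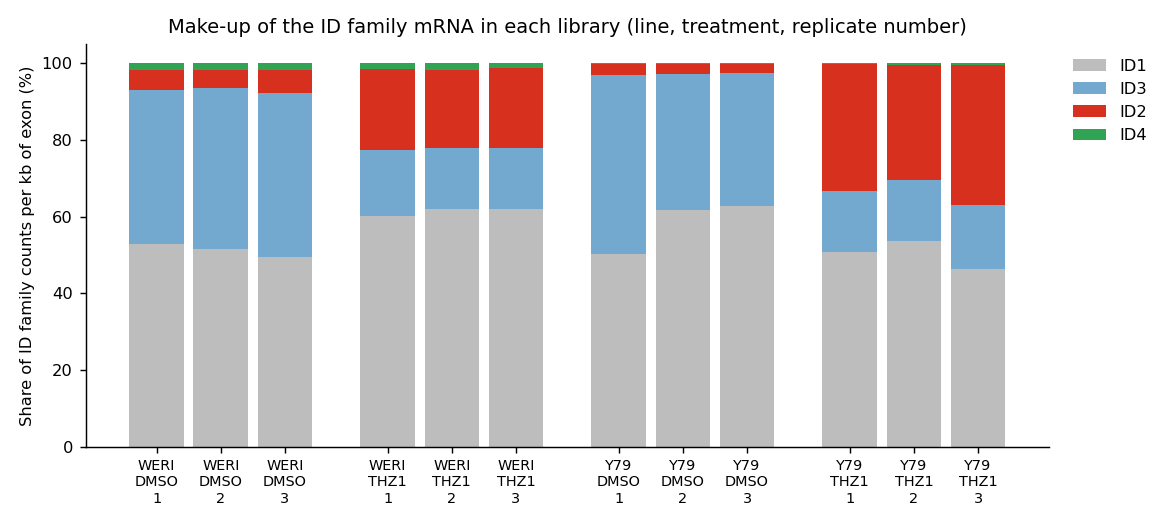
Share of each ID gene in the ID family's counts per kb of exon (vertical axis, percent) in each of the 12 libraries, 1 stacked bar per library. The ID2 part grows from 4.68% to 5.76% in WERI controls to 20.3% to 21.0% after THZ1, and from 2.22% to 2.90% to 30% to 36.5% in Y79.

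Set per kb of exon so that genes can be compared, ID1 and ID3 made up almost all ID mRNA of the controls. In WERI controls ID1 held 51.3% ± 1.74 of the family's counts per kb, ID3 41.7% ± 1.36, ID2 5.19% ± 0.542 and ID4 1.81% ± 0.0886. After THZ1 the shares in WERI were 61.4% ± 1.06 for ID1, 16.4% ± 0.765 for ID3 and 20.7% ± 0.365 for ID2. In Y79 ID2 went from 2.59% ± 0.345 to 33.2% ± 3.26, ID3 from 38.9% ± 6.70 to 16.2% ± 0.520 and ID1 from 58.2% ± 7.02 to 50.2% ± 3.68. ID2 thus passed ID3 in each treated library of both lines, a description only, since ID2 was chosen for its rise. The level of the 4 genes together was 180 ± 14.7 CPM in WERI controls and 551 ± 22.8 CPM in treated cells, and 188 ± 23.6 and 292 ± 51.1 CPM in Y79.

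HES6 and ID1 held the first places in the order of levels in every group, with ID3 next in controls. Per kb of exon, WERI controls ran from HES6 (114 ± 5.59 CPM per kb) over ID1 (60.1 ± 6.05), ID3 (48.8 ± 4.59) and ID2 (6.04 ± 0.283) to HEY1 (2.69 ± 0.440), ID4 (2.11 ± 0.111) and HES1 (0.100 ± 0.0359). HEY1 and ID4 overlapped in that order, and the other neighbours did not. In Y79 controls ID1 (75 ± 19.4) and HES6 (58.4 ± 7.24) overlapped, followed by ID3 (48.6 ± 0.535), HEY1 (5.53 ± 0.198), ID2 (3.26 ± 0.303), ID4 (0.331 ± 0.0719) and HES1 (0.169 ± 0.0358). After THZ1 ID2 moved to the third place in both lines, at 73.8 ± 2.53 CPM per kb in WERI and 58.0 ± 5.79 in Y79. In treated Y79 cells HES6 overlapped ID1, and HES1 overlapped ID4.

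The difference between the lines in the THZ1 change is built from the same values and is given as a description. It was -1.61 ± 0.282 (log2, Y79 minus WERI) for ID1 and -1.03 ± 0.146 for ID3, so both stood lower in Y79 relative to WERI. It was 0.54 ± 0.122 for ID2, -0.51 ± 0.320 for ID4, 0.05 ± 0.205 for HES6 and -0.09 ± 0.241 for HEY1. For HES1 it was 1.55 ± 0.766, and 0.93 ± 0.838 without treated Y79 replicate 2. Of all tested genes, 22% were called, 8.74% higher and 13.2% lower in this comparison.

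The comparison of the lines in DMSO was not used to choose the members and asked how their levels differ without the drug. ID2, ID4 and HES6 were lower in Y79 than in WERI, and HEY1 was higher. ID4 differed most, with 4.95 ± 0.260 CPM in WERI and 0.775 ± 0.169 CPM in Y79 (log2 -2.67 ± 0.231, edgeR adjusted p = 2.35e-07). HES6 was at 233 ± 11.4 CPM in WERI and 119 ± 14.7 CPM in Y79 (log2 -0.97 ± 0.147, adjusted p = 6.29e-05). ID2 was at 13.3 ± 0.623 and 7.19 ± 0.667 CPM (log2 -0.89 ± 0.0913, adjusted p = 1.33e-06). HEY1 was at 8.70 ± 1.42 CPM in WERI and 17.9 ± 0.641 CPM in Y79 (log2 1.04 ± 0.170, adjusted p = 0.00012). In CPM the libraries of the lines did not overlap for these 4 genes, nor for HES1, as was the case for 77.9% of all tested genes (38.9% higher and 39.0% lower). For HES1 the gap was from 0.258 CPM in WERI replicate 1 to 0.265 CPM in Y79 replicate 3. Both libraries held 11 counts, so the HES1 counts themselves did not separate the lines.

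The other 3 tested members did not pass the threshold between the lines. ID3 was at 87.7 ± 8.25 CPM in WERI and 87.4 ± 0.961 CPM in Y79 (SE of the log2 difference 0.102, adjusted p = 0.981). HES1 was at 0.206 ± 0.0739 and 0.348 ± 0.0737 CPM (log2 0.74 ± 0.548, adjusted p = 0.259), and ID1 at 74.2 ± 7.46 and 92.4 ± 23.9 CPM (log2 0.32 ± 0.199, adjusted p = 0.187). ID1 passed without Y79 DMSO replicate 1, its lowest control (log2 0.52, adjusted p = 0.0174). In all 1 member was called higher and 3 lower of 7, or 4 of 7, where 32.3% of all 14865 genes were called higher and 32.6% lower (64.9% in all), so this share of members was close to that of all genes. These 4 calls held under all 3 scalings and when any library was left out.

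The patterns most like those of the members over the 12 libraries belonged to genes of varied kinds. Likeness was the root mean square (RMS) difference of log2 CPM, centred per gene, to each of the Ensembl genes whose log2 CPM averaged 3 or more, and all genes share the same libraries. The genes nearest to ID2 were the histone H3 genes HIST2H3A (0.239) and HIST2H3C (0.258) and the histone H4 gene HIST2H4A (0.326). These histone genes have near-identical copies, so their counts are uncertain. Nearest to ID4 was CHRD (0.205), the BMP antagonist chordin, with log2 fold changes after THZ1 of 1.38 in WERI and 1.30 in Y79. Next came AQP3 (0.223) and RCVRN (0.245), which encodes the photoreceptor protein recoverin. The lysosomal cholesterol carrier gene NPC2 (0.160), with ITFG1 (0.153) and GAS6 (0.141), was near HES6. PRMT3 (0.100), HAUS2 (0.105) and COPG1 (0.123) were near ID3, and WRB (0.281), MYCBP (0.301) and TERF2IP (0.305) near ID1. SPG21 (0.143), ABRAXAS1 (0.163) and HMGB3 (0.171) were near HEY1, and EIF3F (0.381), BTF3 (0.393) and RPL29 (0.393), all of the translation machinery or tied to it, near HES1.

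**Figure D4:**
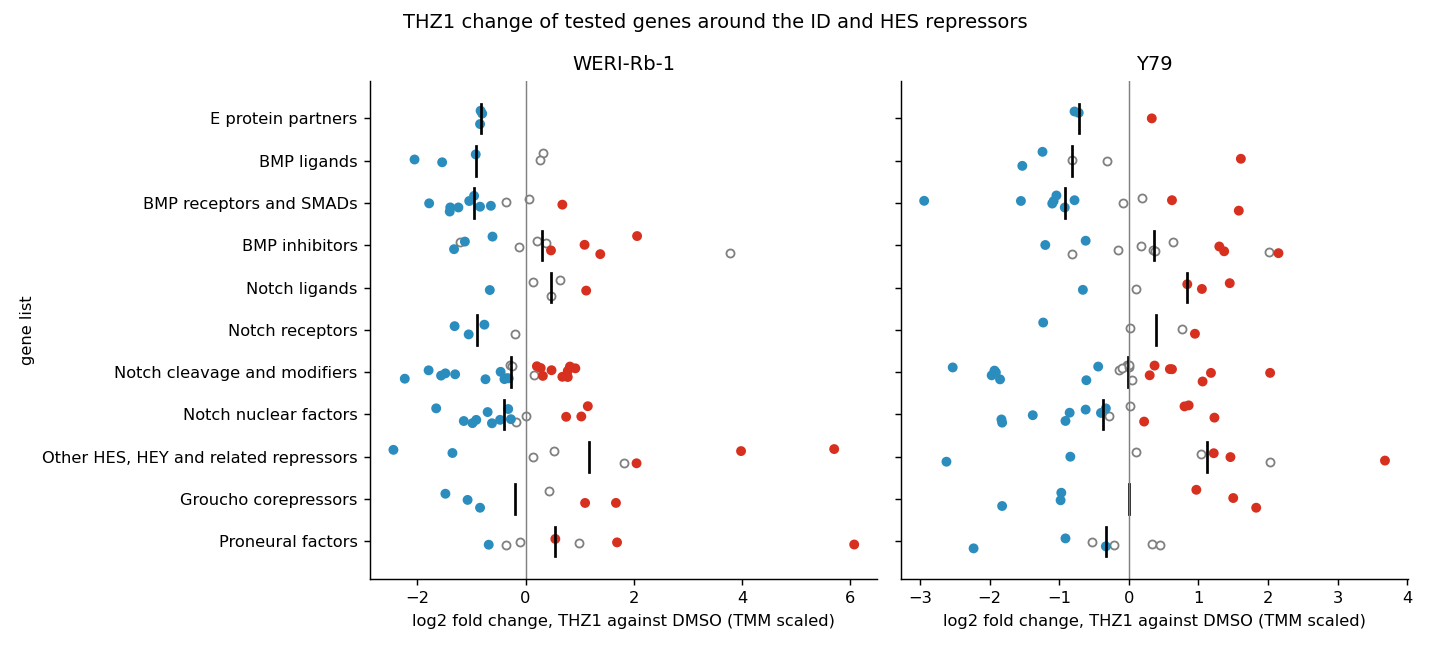
Log2 fold change after THZ1 (horizontal axis, TMM scaled) of every tested gene of 11 lists around the ID and HES repressors, in WERI-Rb-1 (left) and Y79 (right). Red points were called higher, blue points lower, open points were not called, and black bars are list medians, which lie at -0.95 and -0.92 for BMP receptors and SMADs.

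Genes around the members were looked at by their role in the pathways, with the share of all genes called given above. Their counts hold for TMM scaling, and with mitochondrial scaling the medians of all 11 lists were negative in both lines. E proteins, the partners that ID proteins capture, fell in WERI for 3 of 3 genes, and in Y79 2 fell and 1 rose. TCF3 fell from 179 to 100 CPM in WERI (log2 -0.83 ± 0.0620, adjusted p = 5.34e-08) and from 278 to 169 CPM in Y79 (log2 -0.72 ± 0.0617, adjusted p = 1.53e-07). TCF12 fell by 0.84 in WERI and 0.78 in Y79 on the log2 scale. TCF4 fell by 0.80 in WERI but stood at 0.33 in Y79 (adjusted p = 0.0221), a rise that was -0.22 with library size only and -1.38 with mitochondrial scaling. TCF3 and TCF12 fell under each of these scalings.

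Of 12 BMP ligand genes only 5 had enough counts. In WERI 3 of these fell and 0 rose, with BMP8B at -2.05 ± 0.15 and GDF11 at -0.92 ± 0.0993. In Y79 2 fell, BMP8B at -1.53 and GDF11 at -1.24, and 1 rose, GDF7 at 1.61, which was not called under the other scalings. BMP4 and BMP5 had no counts in any library. The list medians were -0.92 in WERI and -0.81 in Y79.

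BMP receptors and SMADs, which carry the signal to the ID genes, mostly fell. In WERI 8 of 11 fell and 1 rose (median -0.95), and in Y79 7 fell and 2 rose (median -0.92). The receptor gene ACVR1 went from 18.3 to 5.34 CPM in WERI (log2 -1.78 ± 0.111, adjusted p = 1.09e-08) and from 24.7 to 8.46 CPM in Y79 (log2 -1.55 ± 0.109, adjusted p = 2.21e-08). BMPR1A fell by 1.39 in WERI and by 1.10 in Y79, and SMAD1, which binds the ID promoters in BMP signalling, by 1.40 and 0.78. The type II receptor gene ACVR2A rose by 0.68 in WERI and 1.58 in Y79, whereas mitochondrial scaling gave -1.21 and -0.14.

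Among BMP inhibitors 4 rose and 3 fell of 12 tested in WERI (median 0.29), and 3 rose and 2 fell in Y79 (median 0.37). SMAD7, a feedback inhibitor that SMAD signals themselves induce, went from 27.7 ± 4.41 to 115 ± 4.26 CPM in WERI (log2 2.06 ± 0.0974, adjusted p = 1.15e-09). In Y79 it went from 15.6 ± 0.530 to 69.0 ± 2.48 CPM (log2 2.15 ± 0.0995, adjusted p = 4.98e-10). Under mitochondrial scaling SMAD7 stood at 0.17 in WERI without a call (adjusted p = 0.203) and at 0.44 in Y79 (adjusted p = 0.00382). CHRD rose by 1.38 and 1.30, and stood at -0.51 and -0.39 under mitochondrial scaling. The nuclear SMAD repressor gene SKI fell by 1.32 in WERI and 1.2 in Y79.

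Notch ligands and receptors, which lie upstream of HES1, HES5 and HEY1, did not move as 1 group. Of 5 ligands 1 rose and 1 fell in WERI, and 3 rose and 1 fell in Y79. Without treated Y79 replicate 2 the Y79 numbers were 1 and 1, and with library size only 1 rose and 2 fell. DLL3, a neuroendocrine and neuronal member that does not activate Notch, rose from 13.5 to 29.4 CPM in WERI (log2 1.12 ± 0.144, adjusted p = 1.1e-05) and from 51.1 to 106 CPM in Y79 (log2 1.05 ± 0.138, adjusted p = 1.16e-05), and was -0.77 and -0.65 under mitochondrial scaling. Of 4 receptors 3 fell in WERI, whereas in Y79 1 fell and 1 rose. NOTCH1 went from 120 to 48.6 CPM in WERI (log2 -1.31 ± 0.0905, adjusted p = 2.7e-08) and from 68.1 to 29 CPM in Y79 (log2 -1.23 ± 0.0922, adjusted p = 4.16e-08). NOTCH4 rose by 0.95 in Y79 but was not called there with library size only (0.39, adjusted p = 0.066) and fell under mitochondrial scaling (-0.76, adjusted p = 0.00322).

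In DMSO all 4 Notch receptor genes were lower in Y79 than in WERI under all 3 scalings (median -2.66 under TMM). NOTCH2 was at 130 CPM in WERI and 0.363 CPM in Y79, where the control libraries held 20, 12 and 13 counts (log2 -8.46 ± 0.212, adjusted p = 1.22e-12). NOTCH4 differed by -2.79 and NOTCH3 by -2.53.

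Of 22 tested genes of Notch cleavage and modification 9 rose and 10 fell in WERI, and 7 rose and 7 fell in Y79. POFUT1, which puts fucose on Notch, fell by 2.23 in WERI and 2.53 in Y79, and DTX1 by 1.79 and 1.97. MIB2, a ubiquitin ligase for Notch ligands, rose in Y79 by 2.03 ± 0.130 (adjusted p = 8.26e-09), and by 0.33 under mitochondrial scaling. Of 14 nuclear factors 3 rose and 9 fell in WERI and 4 rose and 8 fell in Y79. The coactivator gene EP300 fell by 1.65 and 1.82, and SNW1 by 1.14 and 1.83. HDAC1, a deacetylase in the repressor complex, rose by 1.15 in WERI and was -0.75 there under mitochondrial scaling.

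The list of other HES, HEY and related repressors held relatives of the members, and also NRARP, which is not of their families. Its numbers and medians include NRARP. In WERI 3 rose and 2 fell of 8 tested, and in Y79 3 rose and 2 fell as well (medians 1.18 and 1.13, and -0.69 and -0.58 under mitochondrial scaling). The Y79 median was 0.46 without treated replicate 2. Of the WERI rises, HES2 (0 to 0.186 CPM) and HES3 (0.0487 to 0.795 CPM) had few counts. HEYL, a Notch target, went from 34.8 ± 2.10 to 6.39 ± 1.11 CPM in WERI (log2 -2.44 ± 0.182, adjusted p = 5.37e-08) and from 11.9 ± 0.387 to 1.89 ± 0.715 CPM in Y79 (log2 -2.62 ± 0.203, adjusted p = 5.63e-08). NRARP, another Notch target that feeds back on the receptor, moved the other way, from 9.99 ± 0.917 to 41.5 ± 3.10 CPM in WERI (log2 2.05 ± 0.114, adjusted p = 4.15e-09) and from 13.9 ± 0.801 to 38.1 ± 5.11 CPM in Y79 (log2 1.46 ± 0.112, adjusted p = 5.55e-08). Under mitochondrial scaling NRARP was not called in either line (0.16 and -0.25). BHLHE40 fell by 1.35 in WERI and 0.84 in Y79. HES4 rose by 1.22 in Y79 and was -0.48 there under mitochondrial scaling. HEY2 and HELT did not pass the low-count filter.

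Groucho corepressors, through which HES proteins silence genes, split in both lines, with 2 rises and 3 falls of 6 in WERI and 3 and 3 in Y79. AES, the short member that lacks the repressor's WD repeats, rose from 210 to 666 CPM in WERI (log2 1.67 ± 0.116, adjusted p = 2.77e-08) and by 1.83 ± 0.116 in Y79 (adjusted p = 7.61e-09). It was not called under mitochondrial scaling (-0.23 and 0.12). TLE3, a full-length member, fell by 1.48 and 1.82. TLE2 rose by 1.10 in WERI and 1.5 in Y79, and was -0.80 and -0.22 under mitochondrial scaling.

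Proneural factors, the genes that HES and ID proteins hold back, showed 3 rises and 1 fall of 7 tested in WERI, and 0 rises and 3 falls in Y79. In WERI the numbers were 1 and 2 with library size only, and 1 and 4 with mitochondrial scaling. Of the WERI rises, BHLHE22 (0.161 to 0.526 CPM) and NEUROG1 (0 to 0.241 CPM) had few counts. ATOH7, the ganglion cell factor, fell by 0.68 in WERI and 0.91 in Y79. NEUROD1, which is active in photoreceptor precursors, went from 392 ± 3.20 to 572 ± 9.76 CPM in WERI (log2 0.55 ± 0.0571, adjusted p = 1.46e-06) but from 283 ± 4.65 to 225 ± 2.24 CPM in Y79 (log2 -0.33 ± 0.0572, adjusted p = 0.000169). The WERI rise of NEUROD1 was not called with library size only (0.10) and stood at -1.35 under mitochondrial scaling. OLIG2 fell by 2.23 in Y79. NEUROG1 had 0 counts in each WERI control and 8, 7 and 6 in treated WERI libraries.

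**Figure D5:**
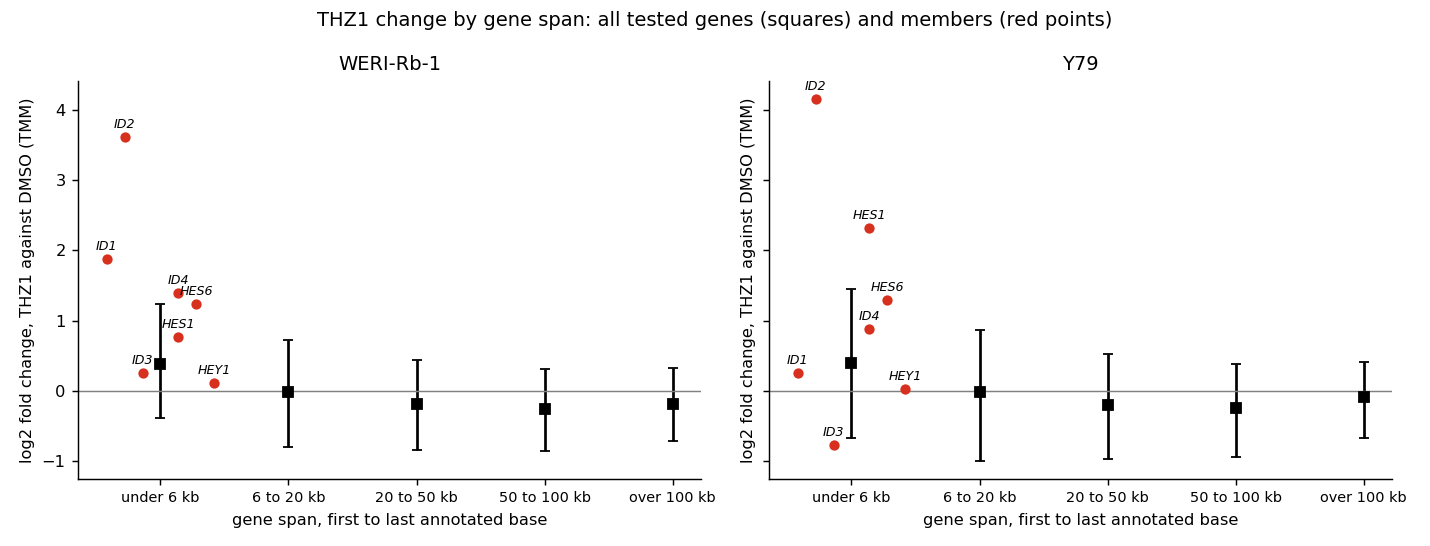
Log2 fold change after THZ1 (vertical axis, TMM scaled) by gene span in WERI-Rb-1 (left) and Y79 (right): black squares with bars give the median and quartiles of all tested genes in 5 span classes, and red points the 7 members tested, all in the shortest class. In WERI, ID3 and HEY1 lie below the median of that class (0.38) and the other 5 members above it.

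Gene span is a property that the members share and that their choice did not use. All 8 members span under 6 kb, as do 11.6% of tested genes, and the median span of tested genes was 32200 bases. All 8 also have at most 5 exons in any annotated transcript, as do 25.2% of tested genes. Genes with at most 5 exons had a median log2 fold change after THZ1 of -0.12 in WERI and -0.19 in Y79. Genes with over 5 exons had -0.11 and -0.06, so few exons did not go with higher values. Under TMM scaling, genes under 6 kb had a median log2 fold change after THZ1 of 0.38 in WERI and 0.40 in Y79 (1729 genes). Medians were -0.25 and -0.24 for genes of 50 to 100 kb (2552 genes), and -0.19 and -0.09 for genes over 100 kb (2980 genes). The quartiles of the short genes were -0.39 and 1.23 in WERI and -0.67 and 1.45 in Y79. ID1, ID2 and ID4 lay above the upper quartile of short genes in WERI, with HES6 at its edge, and ID2 and HES1 in Y79, whereas ID3 in Y79 lay below the lower quartile.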

How the data were processed

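RNA of 2 cell lines was measured in 12 libraries, made with the NEBNext Ultra RNA kit per the labels' protocols. The authors deposited whole-number counts per gene and per unannotated locus, without normalization that the values show. The submitters' processing notes name Cufflinks and GRCh38. For the aligner and the counting method, nothing is stated in the labels used. Groups came from the sample titles. In R 4.3.3 with edgeR 4.0.16, features were filtered by filterByExpr (14865 Ensembl genes and 3979 unannotated loci left), scaled by TMM, and fitted with 1 mean per group over all libraries (glmQLFit with robust spread, glmQLFTest, two-sided, 8 residual degrees of freedom). Benjamini-Hochberg adjustment covered every tested feature, with calls at an adjusted p under 0.05. Counts of genes called cover Ensembl genes. SE is the absolute log2 fold change over the square root of F. P-values set the difference between groups against the spread between cultures of the same group, estimated over all groups together.

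From each pathway list up to 3 genes per comparison were named, those with the largest called change and an average log2 CPM of at least 0. Each member got its 3 nearest genes. A few others (GDF7, BMP4, BMP5, HEY2 and HELT) were named after their values were seen. Members and lists were chosen with earlier results of these data known. Identifiers (19974 of 19974) were matched to GENCODE 29, and promoters came from RefSeq. TLE5 was counted under its older symbol AES. Alternatives were RLE factors, library size only, scaling on mitochondrial mRNAs, no filter, DESeq2 1.42.0, a replicate block and each library left out. The model was tested on simulated data. Tables and figures were made in Python 3.11.15 with pandas 2.3.3 and matplotlib 3.10.9.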

Additional observations from a re-analysis of the deposited data

Results flagged for a closer look

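Changes after THZ1 that differed between the lines are listed as log2 differences, Y79 minus WERI. For ID3 every treated WERI library lay above the mean of its controls and every treated Y79 library below it, a difference of -1.03 that was not tested here. With library size only the ID3 change was negative in both lines.

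Of the genes in the 11 pathway lists, 23 passed the edgeR test of this difference at an adjusted p under 0.05. Many genes outside the lists passed it too, and the share of all tested genes called is given in the Results. Whether the lists held more calls than other genes was not tested, so the 23 calls do not set these pathways apart. The difference was 1.13 for the E protein gene TCF4. Among BMP receptors and SMADs it was 1.14 for BMPR1B, 0.89 for ACVR2A, 0.62 for SMAD1, 0.55 for SMAD5, 0.56 for SMAD9 and -2.58 for ACVRL1, which had 2, 0 and 0 counts in treated Y79 libraries. It was 0.90 for the BMP inhibitor SMURF1, 0.77 for the Notch ligand JAG2, 1.71 for NOTCH4, and 1.82 for NOTCH2, which had 20 counts or fewer in each Y79 control. Among Notch modifiers it was 1.11 for MIB2, 0.87 for RFNG, 0.49 for FBXW7 and -0.48 for NCSTN. It was 0.49 for RBPJ, -0.69 for SNW1, 0.51 for BHLHE40, -0.60 for NRARP and -0.34 for TLE3. Among proneural factors it was -0.87 for NEUROD1 and -2.12 for OLIG2. For NEUROG1 the fitted value was -5.73, which depends on how the model treats the 0 counts of the WERI controls.

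With mitochondrial scaling 19 of these 23 calls were made again, without NCSTN, SNW1, NRARP and TLE3. With library size only 18 were, without SMAD1, SMAD5, SMAD9, FBXW7 and BHLHE40. Without treated Y79 replicate 2 22 were, without BHLHE40. With the replicate block 20 were, without SMAD1, BHLHE40 and TLE3.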

How the results depend on the processing

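Of the THZ1 changes of members, those of ID3 in WERI (0.26) became -0.18 with library size only and -1.63 with mitochondrial scaling, which also turned ID1 (-0.03), ID4 (-0.50), HES6 (-0.66), HES1 (-1.09) and HEY1 (-1.77) in WERI and ID1 (-1.45), ID4 (-0.81), HES6 (-0.42) and HEY1 (-1.69) in Y79. With library size only HEY1 (-0.33 in WERI, -0.55 in Y79) and ID1 in Y79 (-0.33) were negative too. The balance of all genes moved with it. In WERI 4115 genes were higher and 5523 lower under TMM, 2221 higher with library size only, and 111 higher and 13328 lower with mitochondrial scaling. In Y79 the numbers were 4439 and 5721, 2175 higher, and 283 and 12188. For the difference between the lines (1299 higher, 1965 lower), 740 were higher with library size only and 713 lower with mitochondrial scaling. For Y79 against WERI in DMSO (4802 higher, 4844 lower), 2706 were higher with mitochondrial scaling. The cause was not tested.

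With each library left out in turn, the difference between the lines gave 889 to 2161 higher and 1437 to 3029 lower genes, the largest numbers without Y79 THZ1 replicate 2, and members higher in Y79 in DMSO numbered 1 to 2. Same-numbered libraries did not deviate together (correlations from -0.044 to 0.015), so the numbers were taken as names only. With the replicate block 3984 genes were higher and 5410 lower in WERI, and 1061 and 1707 for the difference between the lines. HES1, HES5 and, in Y79, ID4 rest on at most 62 counts per library.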
